A study of Schistosoma mansoni with 6 samples.

Results

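Of the 10770 rows with exons in the deposited table, 174 carried the product name of an ion channel, a G protein-coupled receptor (GPCR) or a closely related gene. They were chosen by name alone, as rows naming a channel, a GPCR, a rhodopsin, an acetylcholine, glutamate, GABA or serotonin receptor, or a neuropeptide. Names with the word kinase or a mitochondrial term were to be left out, and 0 rows fell to that exclusion. There were 106 channel genes, 65 GPCR genes and 3 other genes. These 3 were a pair of neuropeptide precursors and a row named as a phosphodiesterase, caught by the word rhodopsin in its name. The gene ontology terms in the same table gave channel activity to 85 of the 174, GPCR activity to 61 and a membrane term to 169. For 18 members they named neither channel activity nor receptor activity of any kind. Those terms come from the same annotation as the names, so they are no independent check of identity. Of the 174 genes, 155 (89.1%) had enough reads to test, against 82.5% of all rows with exons.

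The RNA came from male Schistosoma mansoni, the blood fluke that causes intestinal schistosomiasis, of the NMRI strain. Worms perfused from mice 43 days after infection were given 200 Gy of gamma radiation or mock-irradiated and then kept in Basch Media 169 for 48 h, after which head and testes were cut away. The 3 irradiated and the 3 control libraries, labelled A, B and C in each group, each came from a pool of 14 to 18 worms. No label tells if the pools trace to separate infections, and p-values therefore reflect only how these pools vary, which may be technical.

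Ion channels are membrane proteins that pass ions down their gradients, opened by voltage, a bound ligand, calcium, temperature or stretch. Together with GPCRs, which turn the binding of an amine, a peptide, glutamate or an odorant into a G protein signal inside the cell, they carry the work of nerve and muscle. In schistosomes they control movement and attachment, and several classes are targets of antiparasitic drugs. Praziquantel, the drug used against schistosomiasis, activates a TRP channel of the melastatin (TRPM) type. Gamma irradiation at such doses stops cell division, and the dividing somatic cells of flatworms are stem cells called neoblasts.

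Few channel and receptor genes differed detectably between irradiated and control tissue. With the quasi-likelihood test of edgeR and a threshold of 0.05 on the Benjamini-Hochberg adjusted p over 8885 genes, 0 of the 155 were lower after irradiation, where 2.49% of all tested genes were. The 1 gene called higher (0.645%) was Smp_058380, a long-N-terminal adhesion GPCR, beside 0.619% of all tested genes. DESeq2 also called 0 lower and 1 higher, and limma on log2(RPKM + 0.5) called 0 in either direction. At an unadjusted edgeR p under 0.05, 6 of the 155 (3.87%) were lower, against 13.3% of all tested genes, and 15 (9.68%) were higher, against 8.27%. The CPM values of irradiated and control libraries did not overlap for 4 genes (2.58%) in the lower direction, against 13.3% of all tested genes, and for 26 (16.8%) in the higher direction, against 12.0%. CPM is the read count scaled to library size, here with TMM factors. Fewer cells of a type and less RNA per cell cannot be told apart in these bulk samples.

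The median log2 fold change, irradiated over control, was 0.048 over the 155 genes and 0.0021 over all tested genes. With upper-quartile scaling these medians were 0.077 and 0.031, and on gene reads with introns 0.028 and 0.0014. On all exon reads the estimate was above 0 in 98 of the 155 (63.2%) and in 50.7% of all tested genes, and in 50 of 90 members on exon-exon reads. The estimate exceeded 1.5-fold for 3 members, 1 of them past 2-fold, and 81 had a log2 fold change within 0.1 of 0. The 95% interval of the change lay wholly within 1.5-fold either way for 124 of the 155 genes (80.0%), against 85.0% of all tested genes. It lay within 2-fold for 149 (96.1%), against 94.9%. The 6 genes whose interval reached past 2-fold were Smp_058380 and 5 genes with 61 to 163 exon reads over the 6 libraries. The median standard error of a log2 fold change was 0.101 for channel and receptor genes and 0.069 for all tested genes, so small changes are seen less sharply here than in the average gene. In the fold-change plot the estimates form a flat line with wide bars at both ends.

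**Figure D1:**
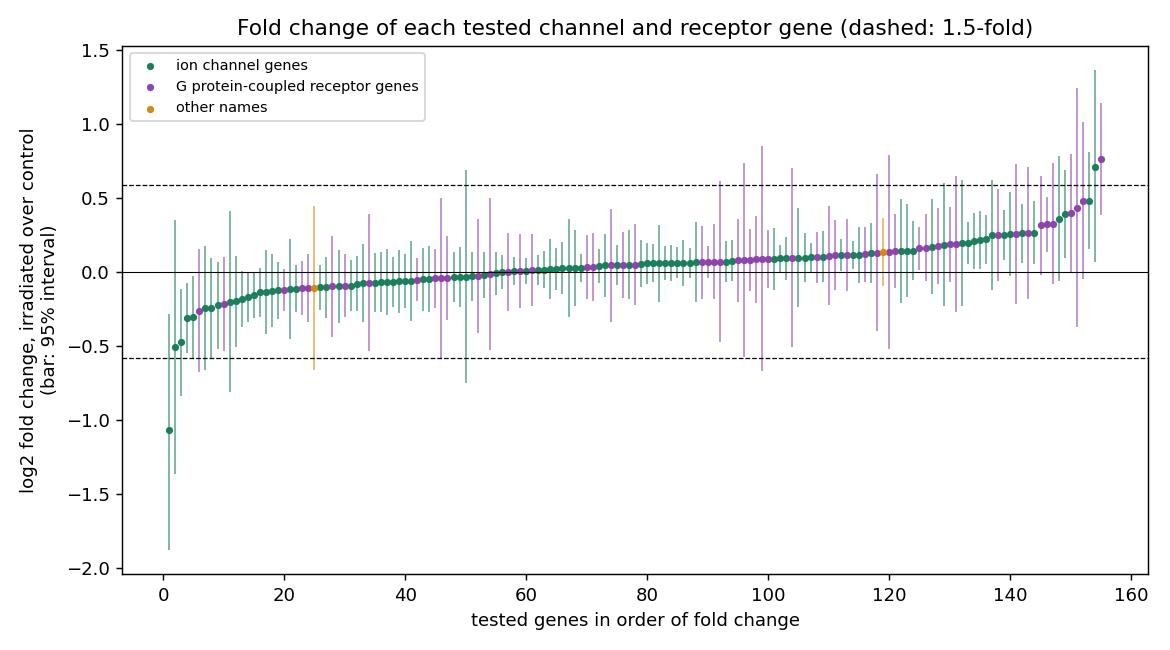
Log2 fold change (irradiated over control, y axis) of each of the 155 tested channel, receptor and other genes, in order of size (x axis); bars are 95% intervals and dashed lines mark 1.5-fold. Most estimates lie close to 0, the single one below -1 is Smp_136450, and the highest is the adhesion GPCR Smp_058380.

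The irradiated and control libraries differed in other respects. Total exon reads ranged from 21594259 to 29641087 in irradiated libraries and from 17577059 to 26858868 in control libraries, and 3 reads, the limit that a count of 0 allows, were worth 0.101 to 0.171 CPM. Such limits cover counting error only. Of 19 tested markers of dividing stem cells, 13 were called lower and 0 higher by edgeR, against 2.49% and 0.619% of all tested genes. DESeq2 called 11 of them lower and limma 13. The 16 neuronal markers summed to 1840 to 1908 CPM in irradiated tissue, against 1825 to 1894 CPM in control tissue, with 0 of the 16 at 0 reads. The 49 tegument markers summed to 17650 to 19029 CPM in irradiated tissue, against 15895 to 17011 CPM in control tissue. Of 45 tested, 36 lay above 0, against 50.7% of all tested genes. EdgeR called 3 of the 45 higher, against 0.619% of all tested genes, and 0 lower. DESeq2 called 6 higher and limma 0. At an unadjusted edgeR p under 0.05, 12 tegument markers were higher, against 8.27% of all tested genes, and 0 lower. Muscle markers summed to 23134 to 24947 CPM in irradiated tissue and 24336 to 25303 CPM in control tissue. Above 0 lay 9 of the 27 tested, against 50.7% of all tested genes. By edgeR, 2 of the 27 were called lower, against 2.49% of all tested genes. They were paramyosin Smp_169970 with a log2 fold change of -3.50 and titin Smp_163920 with -0.41. The row named paramyosin was scarce, with 0.439, 0.417 and 0.585 CPM in irradiated tissue, against 6.04, 5.25 and 5.02 CPM in control tissue. Whether it is the main paramyosin of muscle was not tested. At an unadjusted p under 0.05, 8 muscle markers were lower and 2 higher, against 13.3% and 8.27% of all tested genes. DESeq2 called 4 muscle markers lower and limma 2, with 0 higher by either. Gut markers summed to 22949 to 23974 CPM in irradiated tissue and 24051 to 26272 CPM in control tissue. Of 13 tested, 1 lay above 0, against 50.7% of all tested genes, with a median log2 fold change of -0.086. EdgeR and limma called 0 of these, and DESeq2 called 1 lower. At an unadjusted edgeR p under 0.05, 2 gut markers were lower and 0 higher, against 13.3% and 8.27% of all tested genes. Head and testes had been cut away. Of 43 rows matched by name as head gland markers, 10 had 0 reads and 11 were tested. EdgeR called 1 of these 11 higher, against 0.619% of all tested genes, and 0 lower. The called row was SmVAL8, with a log2 fold change of 0.97. The 9 rows matched by name as germline markers summed to 460.0 to 470 CPM in irradiated tissue and 480 to 498 CPM in control tissue. Their most abundant tested row by RPKM, Smp_143780, is named t-complex-associated-testis-expressed 1-related. Such name matches do not show if head or germline tissue was left. The part of these marker shifts in the slight excess of channel and receptor genes above 0 was not tested.

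Channel and receptor transcripts were scarcer than those of the average gene. RPKM, reads scaled by exon length and library size, allows levels to be compared between genes. The median member had 4.89 RPKM over the 6 libraries, against 16.1 RPKM for all rows with exons, and stood at percentile 31.5 of them. At or above 10 RPKM were 47 members, 95 lay between 1 and 10 RPKM, and 32 were under 1 RPKM. The 10 most abundant members held 51.3% of the summed RPKM. That sum was 2419, 2400 and 2457 RPKM in irradiated libraries A, B and C, against 2380, 2218 and 2335 RPKM in control libraries A, B and C, so the groups did not overlap but lay close. RPKM values are not rescaled by TMM, so small RPKM gaps need not match the fold changes. Members had a longer exon length than the average row, with a median of 1555 bases against 1180, and fewer exons, with a median of 4 against 5. Exons took a median of 75.9% of a tested member's gene reads, against 87.8% over all tested genes.

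**Figure D2:**
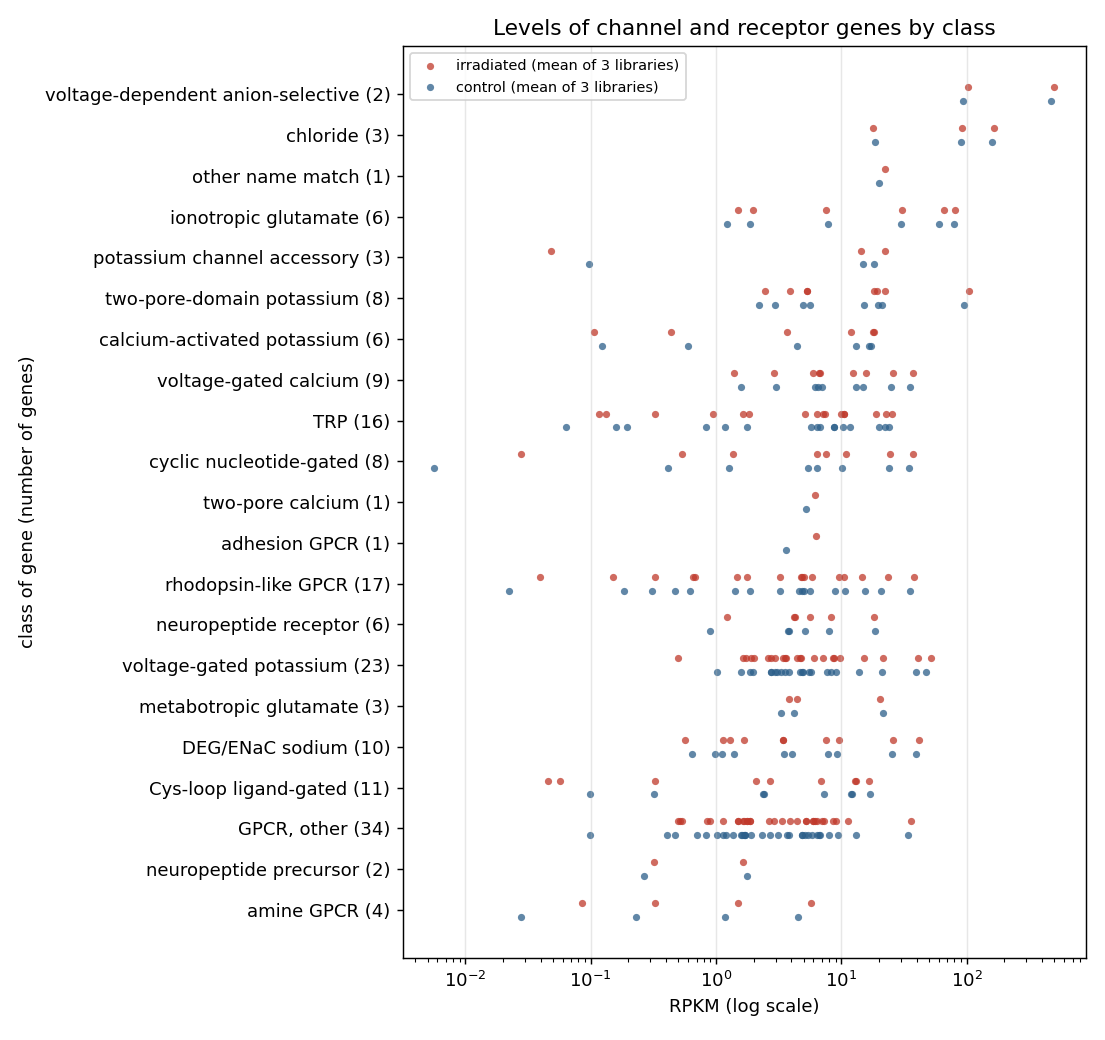
Mean RPKM (x axis, log scale) of each channel and receptor gene in irradiated (red, upper) and control (blue, lower) tissue, by class (y axis, number of genes in parentheses), with genes listed at 0 not drawn. The voltage-dependent anion-selective channel Smp_091240 stands farthest right, near 503 RPKM in irradiated tissue, and the irradiated and control points of the more abundant genes lie close together.

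Voltage-gated potassium channels, which repolarise nerve and muscle after each impulse, formed the largest channel class, with all 23 genes tested. Of these 10 lay above 0 and 13 below, with a median log2 fold change of -0.035, and edgeR called 0. The most abundant, Smp_121190, had 52.2, 51.8 and 53.0 RPKM in irradiated tissue, against 47.4, 47.3 and 47.9 RPKM in control tissue. All irradiated values lay above all control values, with a log2 fold change of 0.11 (SE 0.041, edgeR adjusted p = 0.162). The authors' deposited table gives this gene a fold of 1.10 with an unadjusted p of 0.000253, the smallest among all members in that table. The second, Smp_069240, had 40.3, 40.5 and 42.6 RPKM in irradiated tissue, against 40.6, 39.1 and 39.3 RPKM in control tissue, with a log2 fold change of 0.027. The other 21 genes averaged between 0.76 and 21.3 RPKM. One of them, Smp_151810, had 65.5% of its exon reads placed uniquely, so its level may include reads of a similar gene.

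A pair of scarce voltage-gated potassium genes had the lowest estimates of the class. Smp_136450 had 0.203, 0.370 and 0.293 CPM in irradiated tissue, against 0.671, 0.481 and 0.628 CPM in control tissue. Its groups did not overlap, and the log2 fold change of -1.07 (SE 0.35, edgeR adjusted p = 0.126) rests on 61 exon reads in all 6 libraries. Counting intron reads too, it had 37 gene reads in irradiated and 77 in control libraries, and edgeR then called it lower, at -1.18 on the log2 scale and an adjusted p of 0.0480. Its neighbour on the RefSeq assembly, Smp_136440, is also a voltage-gated potassium channel gene, had 1.80, 1.77 and 1.67 RPKM in irradiated tissue, against 1.87, 2.03 and 1.76 RPKM in control tissue, and a log2 fold change of -0.14 (edgeR adjusted p = 0.560). The gene Smp_136450 has 498 bases of exon against 1686 in Smp_136440, and whether both rows belong to 1 transcript was not tested. Smp_090430 had 2.10, 2.08 and 2.51 CPM in irradiated tissue, against 2.68, 3.32 and 3.37 CPM in control tissue, a log2 fold change of -0.48 (SE 0.16, edgeR adjusted p = 0.131) without overlap between groups. In the authors' deposited table these were the 2 members lower at an unadjusted p under 0.05 (1.15%, against 6.77% of all rows with exons). A further 20 members (11.5%) were higher there, against 6.74% of all rows.

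Calcium-activated potassium channels open when internal calcium rises and damp excitation. Of 6 genes, 5 were tested, 2 above and 3 below 0, and 0 were called by edgeR. The leading pair had close levels: Smp_166910 had 17.2, 18.5 and 19.2 RPKM in irradiated tissue, against 18.5, 16.8 and 16.5 RPKM in control tissue, and Smp_166620 had 16.5, 19.0 and 18.2 RPKM in irradiated tissue, against 17.1, 15.5 and 17.1 RPKM in control tissue. Their log2 fold changes were 0.056 and 0.09. Smp_161450 had the lowest adjusted p of the class, with 20.1, 24.0 and 20.4 CPM in irradiated tissue, against 23.3, 29.8 and 27.0 CPM in control tissue. Irradiated library B overlapped with control library A, and the log2 fold change was -0.31 (SE 0.10, edgeR adjusted p = 0.132). Without irradiated library B it passed the threshold, its log2 fold change being -0.40 (edgeR adjusted p = 0.0432). Leaving out that library also raised edgeR calls over all tested genes, from 221 lower and 55 higher to 723 lower and 129 higher. Across the edgeR, DESeq2 and limma alternatives, the adjusted p of Smp_161450 reached 0.374. Smp_126580, with 123 reads, had a log2 fold change of -0.51 and a 95% interval from -1.37 to 0.35.

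Potassium channels of the TWIK family, which have a pair of pore domains in each subunit, leak potassium at rest and set the resting potential. All 8 genes were tested, 6 lay above 0, and the median log2 fold change was 0.099. At an unadjusted edgeR p under 0.05, 3 were higher, against 8.27% of all tested genes, though edgeR called 0 after adjustment. The most abundant potassium channel gene of the set was in this class. Smp_034850 had 103, 103 and 108 RPKM in irradiated tissue, against 100.4, 87.9 and 98.3 RPKM in control tissue, without overlap between the groups and with a log2 fold change of 0.11 (SE 0.048, edgeR adjusted p = 0.222). Smp_151120 had 21.1, 22.4 and 23.2 RPKM in irradiated tissue, against 21.8, 20.4 and 20.6 RPKM in control tissue, with a log2 fold change of 0.058. The smallest p of the class belonged to Smp_155970, with 27.7, 31.0 and 33.0 CPM in irradiated tissue, against 25.1, 25.7 and 26.4 CPM in control tissue. Its groups did not overlap, with a log2 fold change of 0.25 (SE 0.075, edgeR adjusted p = 0.108). Reads that cross exon junctions gave -0.084 for this gene, but they were only 5.3% of its 3999 exon reads. Among the auxiliary genes, the potassium channel beta subunit Smp_012380 had 24.0, 26.8 and 29.0 CPM in irradiated tissue, against 24.1, 20.8 and 21.5 CPM in control tissue, a log2 fold change of 0.26 (SE 0.088, edgeR adjusted p = 0.135). The channel-interacting protein Smp_000180 had 15.9, 13.3 and 14.2 RPKM in irradiated tissue, against 14.3, 15.9 and 14.5 RPKM in control tissue, with a log2 fold change of -0.063.

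Voltage-gated calcium channels let in the calcium that drives contraction and transmitter release. Their beta subunits bring the pore to the membrane and were the most abundant of the 9 genes. The beta 1 subunit Smp_135140 had 38.5, 36.6 and 37.8 RPKM in irradiated tissue, against 37.7, 32.6 and 36.3 RPKM in control tissue, and the beta 2 subunit Smp_141660 had 26.0, 24.0 and 27.1 RPKM in irradiated tissue, against 26.0, 22.7 and 26.3 RPKM in control tissue. Both were near 0, with log2 fold changes of 0.058 and 0.018. All 5 rows named voltage-dependent calcium channel with no subtype lay below 0, from -0.23 to -0.071, as they did under all 17 alternatives, and both dihydropyridine-sensitive L-type rows lay above it, at 0.075 and 0.056. Of the 9, 0 were called by edgeR, with 1 lower at an unadjusted p under 0.05, against 13.3% of all tested genes. The two-pore calcium channel Smp_163310, a channel of internal stores, had 10.04, 10.2 and 9.82 CPM in irradiated tissue, against 8.20, 8.79 and 9.08 CPM in control tissue. Its groups did not overlap, with a log2 fold change of 0.21 (SE 0.084, edgeR adjusted p = 0.196).

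Transient receptor potential (TRP) channels are cation channels that sense temperature, chemicals or stretch. Of 16 genes, 14 were tested, 8 above and 6 below 0, and edgeR called 0. At an unadjusted p under 0.05, 3 were higher and 2 lower, against 8.27% and 13.3% of all tested genes. Rows of the subfamily m, the TRPM type, numbered 8, of which 6 were tested with log2 fold changes from -0.18 to 0.096. The files do not say which of them is the one praziquantel activates. The most abundant, the TRPM gene Smp_165170, had 25.1, 26.0 and 25.5 RPKM in irradiated tissue, against 25.0, 22.8 and 24.4 RPKM in control tissue, and Smp_074070 had 22.6, 22.9 and 23.1 RPKM in irradiated tissue, against 22.9, 21.2 and 22.9 RPKM in control tissue. Their log2 fold changes were 0.061 and 0.011.

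Several other TRP genes had larger estimates. Smp_151880 had 5.24, 3.89 and 4.85 CPM in irradiated tissue, against 3.13, 3.37 and 3.65 CPM in control tissue, without overlap and with a log2 fold change of 0.48 (SE 0.15, edgeR adjusted p = 0.108). Without irradiated library B it was called higher, at 0.59 (edgeR adjusted p = 0.0287). Smp_000050 had 49.4, 51.8 and 47.9 CPM in irradiated tissue, against 39.8, 47.5 and 40.9 CPM in control tissue, again without overlap, and a log2 fold change of 0.22 (SE 0.073, edgeR adjusted p = 0.130). It was called higher without control library B, the highest of the control libraries for this gene, at 0.31 (edgeR adjusted p = 0.0474). Smp_147140 pointed the other way, with 42.1, 60.1 and 44.5 CPM in irradiated tissue, against 58.3, 66.1 and 56.4 CPM in control tissue. Irradiated library B overlapped with the control range, and the log2 fold change of -0.31 (SE 0.12, edgeR adjusted p = 0.194) became -0.48 and a call without that library (edgeR adjusted p = 0.00548). Across the edgeR, DESeq2 and limma alternatives, the adjusted p reached 0.343 for Smp_151880, 0.316 for Smp_000050 and 0.490 for Smp_147140. Leaving out irradiated library B raised edgeR calls over all tested genes from 221 lower and 55 higher to 723 lower and 129 higher. The rarest tested TRP gene, Smp_125690, had 0.811, 0.741 and 0.627 CPM in irradiated tissue, against 0.522, 0.350 and 0.457 CPM in control tissue, with a log2 fold change of 0.71 and a 95% interval from 0.063 to 1.36 on 85 reads.

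Cyclic nucleotide-gated channels open on cAMP or cGMP, and hyperpolarisation-activated channels open on hyperpolarisation and are tuned by cyclic nucleotides, so both link GPCR signals to membrane potential. Of 8 genes, 7 were tested and all 7 lay above 0, from 0.016 to 0.36 with a median log2 fold change of 0.095, but 4 of 7 did with intron reads counted and 5 of 7 without control library B. At an unadjusted p under 0.05, 2 of the 7 were higher, against 8.27% of all tested genes, and edgeR called 0. Smp_152500 had 39.0, 35.6 and 37.4 RPKM in irradiated tissue, against 33.2, 35.3 and 36.5 RPKM in control tissue, and Smp_056560 had 24.6, 25.5 and 24.0 RPKM in irradiated tissue, against 23.8, 20.9 and 27.7 RPKM in control tissue. Their log2 fold changes were 0.069 and 0.016, and the groups overlapped in both. Smp_105340 had 26.7, 27.5 and 26.9 CPM in irradiated tissue, against 24.2, 24.3 and 22.2 CPM in control tissue. The libraries of each group were tightly placed, did not overlap and gave a log2 fold change of 0.19 (SE 0.063, edgeR adjusted p = 0.123).

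Sodium channels of the degenerin and epithelial type (DEG/ENaC), which are voltage-independent and blocked by amiloride, had 10 genes, all tested. Above 0 lay 6 and below it 4, and 0 had an unadjusted edgeR p under 0.05. Smp_058270 had 41.3, 42.8 and 40.7 RPKM in irradiated tissue, against 42.2, 35.2 and 40.7 RPKM in control tissue, and Smp_093210 had 27.0, 24.3 and 26.7 RPKM in irradiated tissue, against 26.3, 23.8 and 25.9 RPKM in control tissue. Irradiated and control libraries overlapped in both, at log2 fold changes of 0.056 and 0.014. The row named FMRFamide-gated sodium channel, Smp_144110, is of a type opened directly by a neuropeptide in molluscs, and had 7.60, 7.52 and 7.63 RPKM in irradiated tissue, against 8.54, 6.45 and 8.55 RPKM in control tissue. Another pair of this class, Smp_052630 and Smp_180260, had 89.4% and 88.9% of their exon reads placed uniquely.

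The 2 most abundant members were the voltage-dependent anion-selective channel Smp_091240 and the chloride intracellular channel Smp_137920. Voltage-dependent anion-selective channels are porins of the mitochondrial outer membrane that pass metabolites such as ATP, so they stand apart in function from channels of nerve and muscle. Smp_091240 had 514, 485 and 509 RPKM in irradiated tissue, against 504, 451 and 465 RPKM in control tissue, and Smp_022990 had 103, 99.6 and 105 RPKM in irradiated tissue, against 99.1, 92.3 and 91.5 RPKM in control tissue. The log2 fold changes were 0.06 (SE 0.047) and 0.10 (SE 0.044), and edgeR called 0 of the pair. The chloride intracellular channel Smp_137920 had 169, 158 and 169 RPKM in irradiated tissue, against 163, 146 and 166 RPKM in control tissue, and the chloride channel protein Smp_071970 had 91.3, 90.5 and 93.2 RPKM in irradiated tissue, against 90.5, 87.5 and 91.0 RPKM in control tissue. Irradiated and control ranges overlapped in both, with log2 fold changes of 0.038 and 0.0058, and edgeR called 0 of the 3 chloride channel genes.

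Ligand-gated channels give the fast response to a transmitter. In the ionotropic glutamate class all 6 genes were tested, 4 lay above 0, and 0 had an unadjusted edgeR p under 0.05. The NMDA-type row Smp_126350 was the most abundant ligand-gated channel gene, with 84.1, 79.4 and 79.7 RPKM in irradiated tissue, against 80.1, 74.5 and 84.9 RPKM in control tissue. Its log2 fold change was -0.0025 (SE 0.052, 95% interval from -0.12 to 0.11), which lies within 1.5-fold either way. The kainate-type Smp_153780 had 64.6, 65.4 and 67.1 RPKM in irradiated tissue, against 62.9, 59.0 and 60.1 RPKM in control tissue, with a log2 fold change of 0.089 (SE 0.04, edgeR adjusted p = 0.232) and no overlap. In the Cys-loop class, which holds the acetylcholine-gated channels of muscle and nerve, 7 of 11 genes were tested, 3 above and 4 below 0. Smp_015630 had 15.8, 18.0 and 16.4 RPKM in irradiated tissue, against 18.2, 15.6 and 16.7 RPKM in control tissue, and Smp_104890 had 12.6, 12.8 and 13.2 RPKM in irradiated tissue, against 12.6, 12.3 and 11.9 RPKM in control tissue. Their log2 fold changes were -0.037 and 0.045. The remaining 4 Cys-loop genes had 0 to 8 exon reads over all 6 libraries, among them rows named nicotinic acetylcholine receptor alpha and acetylcholine receptor beta.

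**Figure D3:**
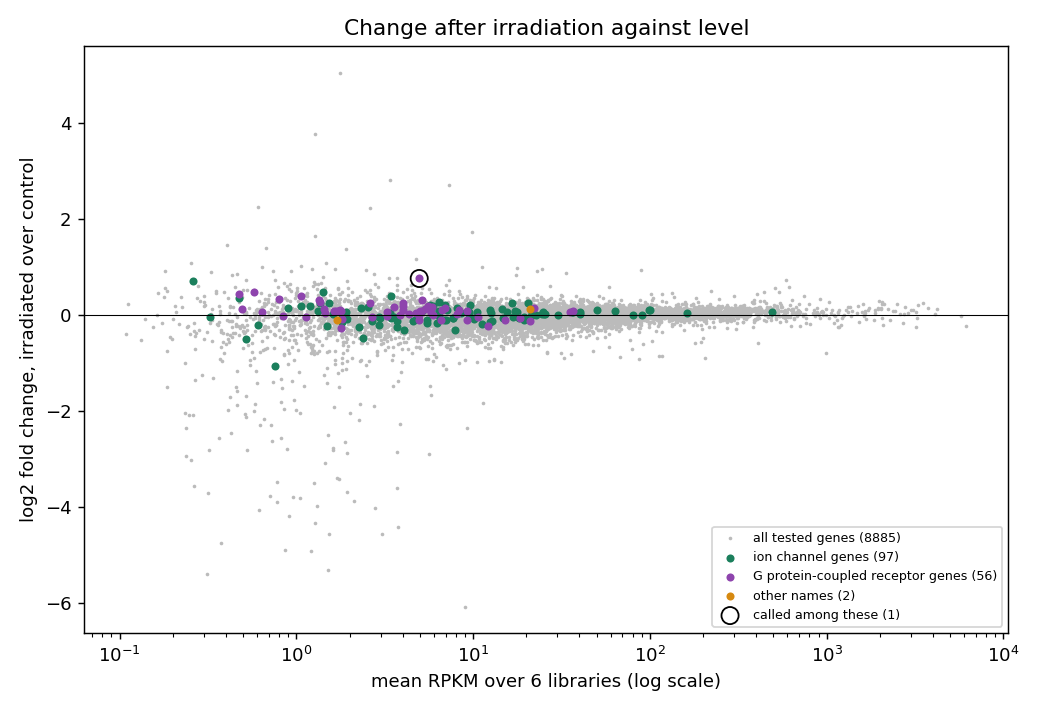
Log2 fold change (irradiated over control, y axis) against mean RPKM over 6 libraries (x axis, log scale) for all 8885 tested genes (grey), with 97 ion channel genes (green), 56 GPCR genes (purple) and 2 other names (orange). The circled point is the 1 called member, Smp_058380, and the lowest member is Smp_136450 at -1.07.

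Among the 65 GPCR genes, 56 were tested, 41 above and 15 below 0, with a median log2 fold change of 0.080, against 56 above and 41 below of the 97 tested channel genes with a median of 0.025, a contrast that was not tested. Without control library B the receptor genes stood at 36 above and 20 below, and on exon-exon reads, which left 16 to test, at 8 above and 8 below. Only Smp_058380 was called. Adhesion GPCRs have long extracellular stretches that bind matrix or other cells. Smp_058380 had 21.9, 30.0 and 17.8 CPM in irradiated tissue, against 13.9, 12.7 and 14.4 CPM in control tissue. Every irradiated library lay above every control library, but the irradiated libraries spread widely, with B highest and C lowest. In RPKM the gene had 6.28 ± 1.64 RPKM in irradiated tissue and 3.64 ± 0.295 RPKM in control tissue (SD, n = 3 each). The log2 fold change was 0.76 (SE 0.17, 95% interval from 0.38 to 1.14), with an edgeR adjusted p of 0.0450, just under the threshold of 0.05. Exon-junction reads gave a log2 fold change of 1.10 (edgeR adjusted p = 0.00326) and DESeq2 an adjusted p of 9.4e-05. The call was lost with limma on log2(RPKM + 0.5), at an adjusted p of 0.104. It was also lost with edgeR without irradiated library A (adjusted p = 0.0964), control library A (0.0642), control library B (0.188) or control library C (0.158). It held without irradiated library B (0.0131) or C (0.00665), and the direction was the same under all 17 alternatives. The authors' deposited table gives it a fold of 1.73 with an unadjusted p of 0.0513.

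Amine GPCRs answer serotonin, dopamine, histamine and related amines, which in schistosomes control movement. Of 4 genes, 2 were tested and both lay above 0. Smp_120620 had 13.7, 13.6 and 15.5 CPM in irradiated tissue, against 11.7, 11.02 and 11.5 CPM in control tissue, without overlap, with a log2 fold change of 0.32 (SE 0.083, edgeR adjusted p = 0.0720). It was called higher without irradiated library B (edgeR adjusted p = 0.0445), where calls over all tested genes also rose. Across the edgeR, DESeq2 and limma alternatives, the adjusted p of Smp_120620 reached 0.254. The other, Smp_150180, had 2.97, 3.29 and 2.63 CPM in irradiated tissue, against 2.46, 2.19 and 2.51 CPM in control tissue, also without overlap, with a log2 fold change of 0.31 (SE 0.15, edgeR adjusted p = 0.259). Metabotropic glutamate receptors are GPCRs that set the slow response to glutamate. Smp_128940, the most abundant of the 3, had 19.2, 21.2 and 20.4 RPKM in irradiated tissue, against 23.9, 20.7 and 20.5 RPKM in control tissue, with a log2 fold change of -0.12 (edgeR adjusted p = 0.288). Smp_150370 had 4.30, 4.59 and 4.36 RPKM in irradiated tissue, against 4.76, 4.25 and 3.64 RPKM in control tissue, with a log2 fold change of 0.032.

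Neuropeptide receptors are GPCRs for peptides released by neurons. All 6 genes were tested and 5 lay above 0, with 0 at an unadjusted edgeR p under 0.05. The neuropeptide F-like receptor Smp_133550 led, with 18.7, 18.0 and 18.2 RPKM in irradiated tissue, against 20.2, 18.4 and 17.3 RPKM in control tissue, and Smp_170020 had 7.75, 7.90 and 9.09 RPKM in irradiated tissue, against 8.86, 7.10 and 7.79 RPKM in control tissue. Both differed little, with log2 fold changes of -0.053 and 0.03. The scarcest, Smp_141880, had 1.89, 2.36 and 2.01 CPM in irradiated tissue, against 1.57, 1.75 and 1.37 CPM in control tissue, with a log2 fold change of 0.40 (SE 0.18, edgeR adjusted p = 0.232) and no overlap. Of the peptide ligands, the neuropeptide F precursor Smp_088360 had 1.56, 2.02 and 1.33 RPKM in irradiated tissue, against 1.77, 1.27 and 2.22 RPKM in control tissue, with a log2 fold change of -0.11. The neuropeptide Y precursor had 31 reads in all and was not tested.

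Rhodopsin-like receptors are the most common kind of GPCR in animals, and 16 rows here are named as orphans, whose ligand is not known. With Smp_180350, a row named only rhodopsin, 14 of 17 were tested, 9 above and 5 below 0, and edgeR called 0. Smp_084270 had 42.5, 31.9 and 40.5 RPKM in irradiated tissue, against 36.9, 34.7 and 35.2 RPKM in control tissue, and Smp_157050 had 23.5, 22.3 and 24.7 RPKM in irradiated tissue, against 21.9, 18.8 and 21.5 RPKM in control tissue. The log2 fold change was 0.081 for the first, whose groups overlapped, and 0.16 for the other, whose groups did not. The largest estimate of the class belonged to the scarce Smp_056080, with 1.22, 1.67 and 1.13 CPM in irradiated tissue, against 1.08, 0.831 and 0.913 CPM in control tissue, a log2 fold change of 0.48 (SE 0.24, edgeR adjusted p = 0.272). The remaining GPCR rows give no type, and 28 of the 34 are named as fragments. Of these 34, 30 were tested, 22 above and 8 below 0, with 0 at an unadjusted edgeR p under 0.05. The fragment Smp_135660 had 35.3, 35.7 and 37.7 RPKM in irradiated tissue, against 34.0, 33.3 and 34.7 RPKM in control tissue, and the next, Smp_000900, had 9.13, 12.9 and 12.2 RPKM in irradiated tissue, against 11.5, 13.8 and 13.7 RPKM in control tissue. Their log2 fold changes were 0.065 and -0.22, and the lowest of these rows, Smp_127720, had -0.26 (SE 0.18). The row Smp_151190, named as a rhodopsin-sensitive cGMP phosphodiesterase, has 456 bases of exon, and enzyme activity of its product was not tested. It had 24.3, 19.2 and 22.9 RPKM in irradiated tissue, against 20.3, 18.3 and 21.3 RPKM in control tissue. Its log2 fold change was 0.13.

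**Figure D4:**
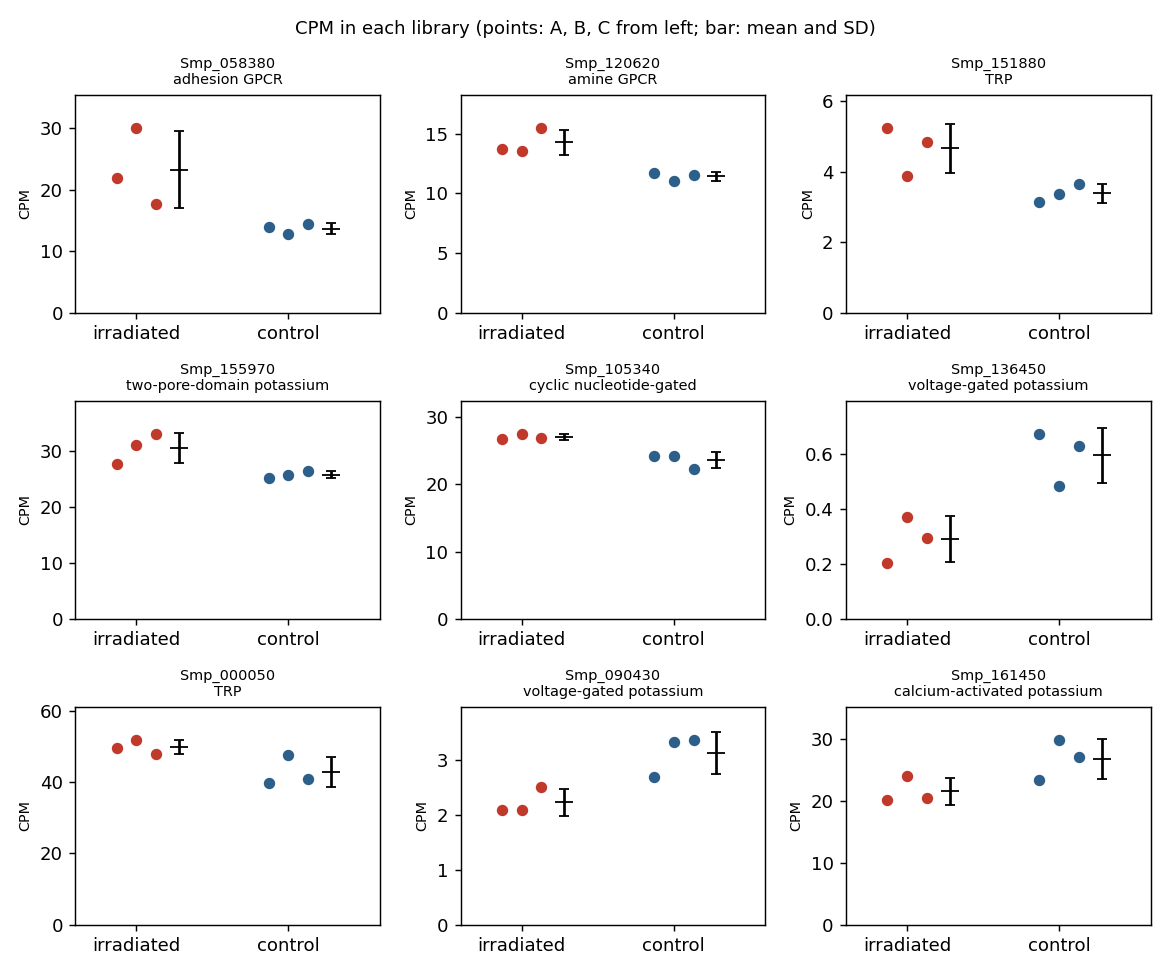
CPM (y axis, from 0) in each irradiated (red) and control (blue) library of the called gene Smp_058380 and the 8 other tested members with the smallest p; points are libraries A, B and C from the left, and black bars give mean and SD of the 3 libraries. The adhesion GPCR reaches 30.0 CPM in irradiated library B, against at most 14.4 CPM in control libraries, while Smp_136450 stays under 0.7 CPM in all 6.

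The 19 members left untested had 0 to 63 exon reads over all 6 libraries. Of these, 4 had 0 reads, namely the Cys-loop rows Smp_096500 and Smp_175110 and the GPCR rows Smp_128710 and Smp_172170. The most reads fell on the GPCR fragment Smp_169680 with 63, on the rhodopsin-like Smp_091950 with 58 and on the amine GPCR Smp_180140 with 48. In RPKM, Smp_169680 had 0.381, 0.445 and 0.682 RPKM in irradiated tissue, against 0.363, 1.22 and 1.45 RPKM in control tissue. Smp_091950 had 0.319, 0.470 and 0.199 RPKM in irradiated tissue, against 0.324, 0.330 and 0.266 RPKM in control tissue, and Smp_180140 had 0.247, 0.561 and 0.172 RPKM in irradiated tissue, against 0.244, 0.171 and 0.275 RPKM in control tissue. With no filter beyond 1 read, 170 of the 174 members were tested, and edgeR again called 0 lower and 1 higher, Smp_058380.

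Of the 174 members, 170 were found in RefSeq assembly ASM23792v2, and 14 of them formed 7 pairs of direct neighbours, 5 pairs within a class. In the voltage-gated potassium pair Smp_063930 and Smp_156640, the log2 fold changes were -0.0097 and 0.13. In the metabotropic glutamate pair Smp_052660 and Smp_150370, they were 0.17 and 0.032. Some neighbours may be pieces of a single gene model, which was not tested.

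Genes on either side of the channels and receptors in the same pathways were measured too. Of 33 channels and receptors whose names do not hold the words used for selection, 26 were tested and edgeR called 0. At an unadjusted p under 0.05, 1 was lower and 4 higher, against 13.3% and 8.27% of all tested genes. The median log2 fold change of these 26 genes was 0.014. DESeq2 called 1 of these lower and 2 higher, and limma 0. The most abundant was a bestrophin-related row, Smp_091820, from a family of calcium-activated anion channels, with 307, 311 and 310.3 CPM in irradiated tissue, against 307, 343 and 330.1 CPM in control tissue and a log2 fold change of -0.077. Among G proteins and their effectors, 50 of 59 were tested and edgeR called 0, with a median of -0.020. At an unadjusted p under 0.05, 4 of these 50 were lower and 4 higher, beside the same shares of all tested genes. DESeq2 and limma called 0 of them as well. Their most abundant row, Smp_014010, is an adenylyl cyclase-associated protein, which also binds actin, and had 401, 390.0 and 407 CPM in irradiated tissue, against 409, 418 and 417 CPM in control tissue.

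Ion pumps, exchangers and calcium-handling genes, which restore the gradients that channels spend, had 64 of 73 tested and 0 called by edgeR. At an unadjusted p under 0.05, 6 were lower and 12 higher, against 13.3% and 8.27% of all tested genes. The median log2 fold change was 0.016. DESeq2 called 1 lower and 2 higher, and limma 0. Calreticulin, Smp_030370, a calcium-binding chaperone of the endoplasmic reticulum, was the most abundant, with 2856, 2848 and 2779.6 CPM in irradiated tissue, against 2666, 2558 and 2443 CPM in control tissue. It lay higher in every irradiated library, with a log2 fold change of 0.15 (SE 0.051, edgeR adjusted p = 0.147).

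Of the genes matched by name to making, releasing and taking up transmitters, edgeR called 2 lower and 1 higher of 59 tested. Over all tested genes, 2.49% were called lower and 0.619% higher. At an unadjusted p under 0.05, 6 were lower and 7 higher, against 13.3% and 8.27% of all tested genes. The median log2 fold change of the list was 0.039. DESeq2 called 4 lower and 2 higher, and limma 1 lower and 0 higher. A cationic amino acid transporter, Smp_054010, which carries arginine and lysine into cells, fell to 1.15, 1.57 and 1.09 CPM in irradiated tissue, against 3.17, 3.15 and 3.20 CPM in control tissue. The change was -1.33 on the log2 scale (SE 0.17, edgeR adjusted p = 0.00253), and the call held without any single library. Smp_054010 entered the list by the words amino acid transporter in its name, and a role in transmitter uptake was not tested. Synapsin, Smp_126990, a vesicle protein of nerve endings, fell slightly, with 95.3, 99.2 and 97.2 CPM in irradiated tissue, against 112, 114 and 112 CPM in control tissue. Its log2 fold change was -0.21 (SE 0.043, edgeR adjusted p = 0.0360), and without control library B the adjusted p was 0.126, without control library C 0.114, without irradiated library A 0.167 and without irradiated library C 0.154. Synaptotagmin, Smp_069120, the calcium sensor of vesicle fusion, rose, with 42.5, 43.1 and 46.6 CPM in irradiated tissue, against 37.7, 32.0 and 35.4 CPM in control tissue. Its log2 fold change was 0.33 (SE 0.071, edgeR adjusted p = 0.0421), and without control library B the adjusted p was 0.137, without control library C 0.152, without irradiated library A 0.0993 and without irradiated library C 0.169. Synapsin and synaptotagmin are also neuronal markers, and moved in opposite directions. Limma on log2(RPKM + 0.5) called neither of them.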

How the data were processed

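Total RNA of 6 pools of worms was sequenced, 3 irradiated and 3 control, for 100 cycles on 1 lane, per the labels. The deposited table holds counts as whole numbers (exon reads in total and unique, gene reads, exon-exon reads), RPKM, and the authors' fold and unadjusted p-value, per the file headers. Aligner, counting program and genome build: not given in the sources used here. Nothing says that strand was kept, so a gene and an overlapping antisense partner could share reads.

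Of 13305 rows, 10770 had exons. The main comparison, irradiated over control, used edgeR (version 4.0.16, R 4.3.3) and its quasi-likelihood test on total exon reads, 17577059 to 29641087 per library, after filterByExpr and TMM scaling. P-values were adjusted by Benjamini-Hochberg over 8885 genes, and 0.05 was the threshold for a call. A standard error is the unshrunken log2 fold change over the square root of F, and 95% intervals use the t quantile at the fit's degrees of freedom. Alternatives were DESeq2 1.42.0, limma 3.58.1 on log2(RPKM + 0.5) and log2(RPKM + 0.1), other scalings, filters and read types, the replicate letter as a block and each library left out. On simulated counts for 8885 genes of this comparison, edgeR found 50% of the genes changed 1.25-fold, 74% of those changed 1.5-fold, 98% of those changed 2-fold and 100% of those changed 4-fold. Of its 172 calls, 11 were false. The changed genes were drawn at random from all 8885, so these rates are not those of channel and receptor genes. The median standard error of the members was 0.101, against 0.069 for all tested genes.

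The members and gene lists were chosen with earlier results of these data known, and the classes were read from product names after the files were seen. The list of G proteins lost 17 rows whose names matched by accident, and the other lists were not pruned in this way. Named genes were members called, the 2 most abundant tested of each class, the 8 with the smallest p not called, the 4 largest falls and rises with a mean of at least 1 CPM, and the 3 untested with most reads. Of the pathway lists, called members or the most abundant were named. A few others, such as Smp_126580, Smp_125690 and neighbouring genes, were chosen after their values were seen. RefSeq assembly ASM23792v2 was used only for neighbours, and no sequences or coordinates are printed.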

Additional observations from a re-analysis of the deposited data

How the results depend on the processing

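The count of channel and receptor genes called higher was 1 with edgeR, and it stayed 1 with RLE or upper-quartile scaling, either other filter, DESeq2, unique exon reads, exon-exon reads and gene reads with introns. It was 0 with limma at either pseudocount. The count called lower was 0 under all of these except gene reads with introns, which gave 1, Smp_136450. Leaving out 1 library gave 0 to 3 called higher and 0 to 2 called lower, the highest counts coming without irradiated library B. The median log2 fold change of 0.048 became 0.018 on exon-exon reads, where 90 members were tested, 0.028 on gene reads with introns, 0.077 with upper-quartile scaling and 0.066 and 0.072 with limma at pseudocounts of 0.5 and 0.1, and ranged from 0.023 to 0.055 with 1 library left out. The median of all tested genes was 0.031 with upper-quartile scaling and 0.027 and 0.028 with limma. With the replicate block, edgeR called 2 lower (Smp_161450 and Smp_147140) and 4 higher (Smp_000050, Smp_058380, Smp_120620 and Smp_155970), while calls over all tested genes grew to 851 lower and 277 higher. Deviations from the group means correlated at 0.0417 for A, 0.179 for B and -0.103 for C between libraries of the same letter. Between libraries of different letters they correlated at -0.212 to 0.185. With 3 libraries per group, these values cannot tell if the letters pair the libraries. Over all tested genes, calls ranged from 119 lower and 16 higher without control library C to 723 lower and 129 higher without irradiated library B, and DESeq2 gave 490 lower and 127 higher. Among single named genes and alternatives, 766 values kept direction and call, 11 gained a call, 6 lost one, and 36 changed sign without being called in either. Depth limits what can be said of the 27 members under 1 CPM. The causes of these shifts were not tested.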
